A study of Mus musculus with 6 samples.

Results

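Matrix metalloproteinases (MMPs), the related ADAM and ADAMTS proteases and their inhibitors, the TIMPs, were examined in mouse bone marrow-derived macrophages (BMDMs), cells grown from marrow monocytes, after co-culture with ID8, an ovarian cancer line of the mouse. The genes were taken from the expression table by name: protein-coding genes called Mmp, Timp, Adam, Adamts or Adamtsl followed by a number. This gave 83 of 54532 listed genes, namely 22 MMP, 4 TIMP, 33 ADAM, 19 ADAMTS and 5 ADAMTS-like genes. Before the co-culture, ID8 cells received 40 µM cisplatin (a DNA-crosslinking platinum compound) for 3 of the libraries and phosphate-buffered saline (PBS) for the other 3. The macrophages of both groups came, per the study's methods, from C57BL/6 mice and were cultured with ID8 cells, so a culture without tumour cells is not part of the comparison. How the macrophages were separated from the ID8 cells before RNA extraction is not given in the sources used here, and the labels do not say whether the 3 libraries of a group came from separate cultures or animals. The study's methods speak of biological replicates without saying what was replicated, so the p-values measure the spread between these libraries, part of which may be technical.

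MMPs are zinc-dependent proteases that are made with an inhibitory propeptide and that cleave collagens, other matrix proteins and many secreted factors once it is removed. Most are secreted and some are anchored in the membrane. ADAMs are membrane proteases that release the outer part of cell surface proteins such as tumour necrosis factor, ADAMTSs are secreted proteases that cut procollagens and matrix proteoglycans, and TIMPs bind the active site of these enzymes. Macrophages and neutrophils are known sources of MMP8, MMP9 and MMP12, and tumour cells and fibroblasts also make several members.

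Several MMP genes lie side by side on chromosome 9. The 9 members there span 427 kb in the order Mmp13, Mmp12, Mmp1b, Mmp3, Mmp10, Mmp8, Mmp27, Mmp20 and Mmp7. The stretches below are the 100 bases before the RefSeq start (GRCm38.p6, plus strand, 5′ to 3′) of the 6 genes on which the results for this cluster turn. Capitals mark a match to TGANTCA, the binding motif of the AP-1 family of transcription factors, which is its own reverse complement. Mmp12 is shown at the later of its RefSeq starts, since the window of the earlier start held no match.
Mmp13, chr9:7272414-7272513: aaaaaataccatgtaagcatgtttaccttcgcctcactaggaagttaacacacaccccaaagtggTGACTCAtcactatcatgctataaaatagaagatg
Mmp12, chr9:7347274-7347373: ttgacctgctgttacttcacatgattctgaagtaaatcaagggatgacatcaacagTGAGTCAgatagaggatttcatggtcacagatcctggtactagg
Mmp3, chr9:7445722-7445821: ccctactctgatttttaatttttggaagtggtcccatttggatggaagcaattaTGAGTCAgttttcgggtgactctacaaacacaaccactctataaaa
Mmp10, chr9:7502242-7502341: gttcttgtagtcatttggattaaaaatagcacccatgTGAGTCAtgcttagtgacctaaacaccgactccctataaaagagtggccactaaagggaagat
Mmp8, chr9:7558329-7558428: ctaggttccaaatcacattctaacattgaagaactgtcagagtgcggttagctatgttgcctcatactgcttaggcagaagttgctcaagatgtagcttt
Mmp27, chr9:7571296-7571395: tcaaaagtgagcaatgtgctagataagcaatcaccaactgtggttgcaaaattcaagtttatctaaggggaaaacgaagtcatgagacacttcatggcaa

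The libraries held between 15776238 and 17924686 reads, as recovered from the deposited FPKM, the fragments on a gene scaled to its length in kilobases and to 1000000 units of a library total. That total was 97.4% to 98.7% of the recovered reads in the PBS and 103.7% to 104.1% in the cisplatin libraries, so the deposited scale differs a little by group. Libraries of the same group correlated with r between 0.984 and 0.989 over the tested genes, and those of different groups with r between 0.871 and 0.877. Marker lists of cell types moved with the groups. The summed FPKM of 12 macrophage markers was 4049 to 4200 with cisplatin and 1517 to 1538 with PBS, with Lyz2 and Cd68 at the highest mean levels over the 6 libraries, and 7 of the 12 rose. The sum of 12 neutrophil markers, led by S100a9 and S100a8, was 9085 to 9345 against 4854 to 5013, and 8 rose. S100a9 and S100a8 themselves were not called, nor was Ly6g (log2 fold change 0.13, adjusted p = 0.349). The sum of 15 markers of ID8 and mesothelial cells was 201 to 217 against 1092 to 1188, and 8 of the 10 tested fell. Krt19 and Krt8 led the list in the PBS libraries, and Msln, which was not called, in the cisplatin libraries. Cdh1 lay in the other direction, at 5.41 ± 0.529 FPKM with cisplatin against 3.24 ± 0.521 (log2 fold change 0.60, adjusted p = 0.00238, not called). A list of 8 lymphocyte markers summed to 442 to 453 against 194 to 201, and 4 of the 6 tested rose. Erythroid markers (6 genes) summed to 71.9 to 76.2 against 64.6 to 68.3 FPKM. Fibroblast markers (8 genes) summed to 5.29 to 5.62 against 4.63 to 5.01 FPKM, mostly from Pi16. Of those below the minimum, Pdgfra, Fbln1 and Col14a1 were 5.10-fold, 4.89-fold and 3.06-fold lower with cisplatin by the means (on a mean of 102, 8.67 and 14.8 reads per library). The rest, Pdgfrb, Lum, Dpep1 and Dpt, were 1.56-fold, 4.53-fold, 3.15-fold and 1.5-fold higher with cisplatin. Their mean reads per library were 74.5, 2.83, 3.5 and 8. Every marker of these lists was above 0 in at least 1 library. In such bulk RNA, fewer cells of a type and less RNA per cell cannot be told apart.

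Proteases and inhibitors were compared between the BMDM libraries from culture with cisplatin-pretreated and with PBS-treated ID8 cells. These libraries also held RNA of the ID8 and mesothelial, neutrophil and lymphocyte markers given above. Genes that reached 1 FPKM in 3 or more of the 6 libraries were tested with limma. Log2 fold changes are on log2(FPKM + 1). A gene is said to have risen or fallen where its adjusted p was under 0.05 and its log2 fold change at least 1 in size. Of the 83 members, 30 were tested, 6 rose with cisplatin (Mmp27, Mmp25, Mmp14, Mmp12, Adam8 and Mmp8) and 9 fell (Adamts7, Mmp11, Adamts9, Adamtsl4, Mmp10, Timp3, Timp2, Adamts14 and Mmp28). Over all 13441 tested genes, 4.67% rose and 11.3% fell. Of the 6 members that rose, 5 were MMPs, a family with 12 tested genes, of which 3 fell. All 3 tested TIMPs were at lower values with cisplatin, and 2 of them fell. By adjusted p alone 12 members were higher and 16 lower, beside 32.9% and 35.1% of all tested genes. The values of the groups did not overlap in 29 of the 30 members, and in 72.4% of all tested genes. The median log2 fold change was -0.27 over the tested members and 0.00 over all tested genes (-0.0011). For 6 of the 30 (Mmp27, Mmp12 and Adam11 with cisplatin, and Adamts14, Mmp10 and Adamts9 with PBS) the minimum was reached in the libraries of a single group, as for 6.63% of all tested genes, and these had to differ to be tested.

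**Figure D1:**
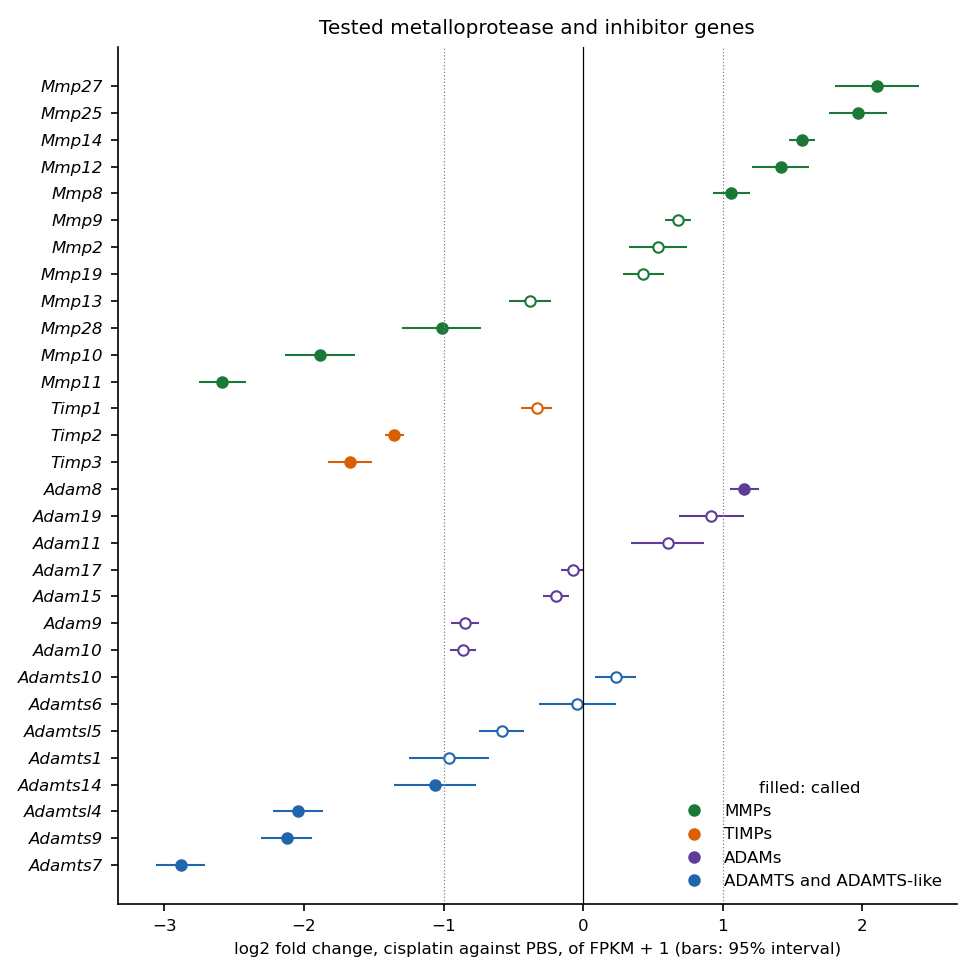
Log2 fold change of FPKM + 1, cisplatin against PBS (x axis), of the 30 tested members (y axis), with 95% intervals from limma as bars. Filled points are members that rose or fell and dotted lines mark a change of 1 in size. The MMPs spread from -2.59 (Mmp11) to 2.10 (Mmp27), and the 3 TIMPs all lie below 0.

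The order of levels differed between the groups. In the PBS libraries Timp2 stood highest of the members at 181 ± 2.61 FPKM (SD, n = 3), followed by Mmp8 (113 ± 6.49), Mmp9 (105 ± 3.86) and Adam10 (98.1 ± 3.42). The ranges of Mmp8 and Mmp9 overlapped there, as did those of Mmp9 and Adam10. In the cisplatin libraries Mmp8 stood highest at 236 ± 12.6 FPKM, followed by Mmp9 (169 ± 3.76), Adam8 (81.0 ± 1.83) and Timp2 (70.4 ± 0.605), and the ranges of these 4 did not overlap. In all, 16 members reached a mean of 10 FPKM in either group.

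**Figure D2:**
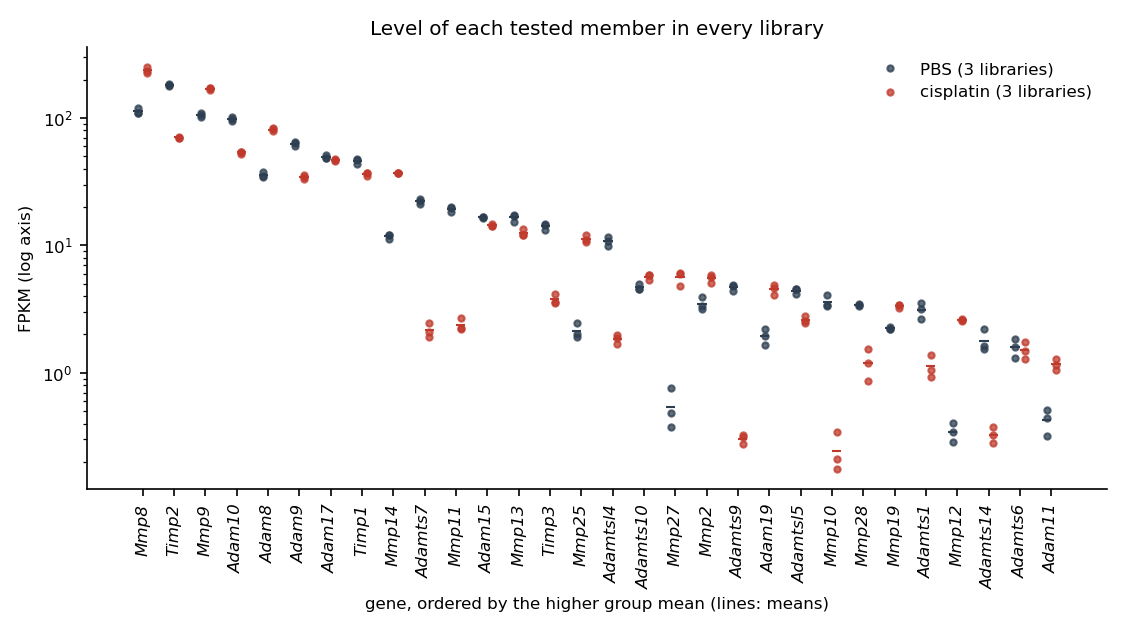
FPKM on a log axis (y) of each tested member (x, ordered by the higher group mean) in every library, with short lines for the group means. Timp2 is at 179 to 184 FPKM in the PBS libraries and 69.9 to 71.0 with cisplatin, and Mmp8 at 108 to 120 and 226 to 250.3.

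Among the collagenases, which cut fibrillar collagen, Mmp8 (neutrophil collagenase, ENSMUSG00000005800, chromosome 9, 7558456 to 7568485) was at 250.3, 233 and 226 FPKM in the cisplatin libraries and at 109.7, 120.2 and 108 FPKM in the PBS libraries. Every cisplatin library lay above every PBS library. The log2 fold change was 1.06 (SE 0.0562, adjusted p = 4.99e-06). Mmp8 was no longer past the threshold when limma treat tested against a log2 fold change of 1. Mmp13 (collagenase-3) was at 12.5 ± 0.714 FPKM with cisplatin and 16.6 ± 1.08 with PBS, which did not reach the fold threshold (log2 fold change -0.38, SE 0.0631, adjusted p = 0.00152). The third collagenase gene, Mmp1b, had no read in any library.

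Both gelatinases, which cleave denatured collagen and basement membrane collagen, were higher with cisplatin by less than the fold threshold. Mmp9 (gelatinase B) was at 170.6, 171 and 165 FPKM with cisplatin and at 105, 109 and 101 FPKM with PBS. The ranges were far apart beside their spread, and the log2 fold change was 0.68 (SE 0.0383, adjusted p = 6.67e-06). Mmp2 (gelatinase A) was at a lower level, 5.51 ± 0.428 against 3.49 ± 0.413 FPKM, and the log2 fold change was 0.54 (SE 0.0872, adjusted p = 0.00132).

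The stromelysins and macrophage elastase, which have a broad choice of matrix substrates, moved in different directions. Mmp12 (macrophage elastase, ENSMUSG00000049723, chromosome 9, 7344381 to 7369499) was at 2.58, 2.63 and 2.54 FPKM with cisplatin and at 0.406, 0.346 and 0.285 FPKM with PBS. It rose 7.48-fold by the group means (log2 fold change 1.42, SE 0.0863, adjusted p = 9.73e-06), from 32 to 52 reads per PBS library to 304 to 318 with cisplatin. Mmp10 (stromelysin-2, ENSMUSG00000047562, chromosome 9, 7502352 to 7510240) was at 0.341, 0.212 and 0.176 FPKM with cisplatin and at 3.31, 3.39 and 4.08 FPKM with PBS. The low group rested on 5 to 10 reads per library, and the group means differed 14.8-fold (log2 fold change -1.88, SE 0.106, adjusted p = 6.53e-06). Mmp11 (stromelysin-3, ENSMUSG00000000901, chromosome 10, 75923222 to 75936496), which unlike most secreted MMPs is activated inside the cell by furin, was at 2.22, 2.24 and 2.68 FPKM with cisplatin and at 18.3, 20.1 and 19.5 FPKM with PBS. It fell 8.10-fold by the means (log2 fold change -2.59, SE 0.0706, adjusted p = 2.48e-07).

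Both tested membrane-bound MMPs rose. Mmp14 (MT1-MMP, ENSMUSG00000000957, chromosome 14, 54431612 to 54445364), a collagenase of the cell surface that also activates pro-MMP2, was at 36.7, 37.2 and 36.9 FPKM with cisplatin and at 12.1, 11.3 and 12.0 FPKM with PBS. The SD was 0.26 FPKM with cisplatin and 0.435 with PBS, and the log2 fold change was 1.57 (SE 0.0395, adjusted p = 1.95e-07). Mmp25 (MT6-MMP or leukolysin, ENSMUSG00000023903, chromosome 17, 23628311 to 23645277), a lipid-anchored enzyme known from neutrophils, was at 10.6, 12.1 and 11.0 FPKM with cisplatin and at 2.01, 1.91 and 2.48 FPKM with PBS. It rose 5.27-fold by the means (log2 fold change 1.97, SE 0.0861, adjusted p = 1.98e-06). The other 4 membrane-bound MMP genes were below the minimum.

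Of the remaining secreted MMPs, Mmp27 (ENSMUSG00000070323, chromosome 9, 7571396 to 7581885) rose from 0.486, 0.378 and 0.759 FPKM with PBS to 4.79, 6.09 and 5.97 FPKM with cisplatin. Its group means differed 10.4-fold (log2 fold change 2.10, SE 0.126, adjusted p = 8.91e-06), with 13 to 26 reads per PBS library and 180 to 221 per cisplatin library. Mmp28 (epilysin, ENSMUSG00000020682, chromosome 11, 83440768 to 83463071) was at 1.18, 1.52 and 0.860 FPKM with cisplatin and at 3.33, 3.45 and 3.38 FPKM with PBS. It lay at the threshold (log2 fold change -1.01, SE 0.119, adjusted p = 0.000253), and the call was lost under quantile normalisation (-0.87), scaling by total reads (-0.96) and without cisplatin replicate 3 (-0.90). Mmp19, an MMP with a broad tissue range, was at 3.35 ± 0.0985 against 2.23 ± 0.0507 FPKM (log2 fold change 0.43, SE 0.0615, adjusted p = 0.000712).

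Within the chromosome 9 cluster 3 of the 5 tested genes rose (Mmp12, Mmp8 and Mmp27), Mmp10 fell and Mmp13 did not pass the fold threshold, where 4.67% and 11.3% of all tested genes rose and fell. Mmp12, Mmp27 and Mmp10 reached the minimum in a single group and so had to differ to be tested. Mmp27 starts 2911 bases after the end of Mmp8 on the same strand. Its FPKM was 0.443%, 0.314% and 0.700% of that of Mmp8 in the PBS libraries and 1.91%, 2.61% and 2.65% in the cisplatin libraries, so the neighbours rose by unequal amounts. The gene between Mmp12 and Mmp10, Mmp3 (stromelysin-1), was below the minimum, with 11, 2 and 5 reads in the cisplatin libraries and 0 in each PBS library. Against 3 reads over the group, which a count of 0 allows, it was at least 5.86-fold higher with cisplatin, and at least 3.46-fold without cisplatin replicate 1. Mmp20 and Mmp7 had no more than 2 reads in any library.

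**Figure D3:**
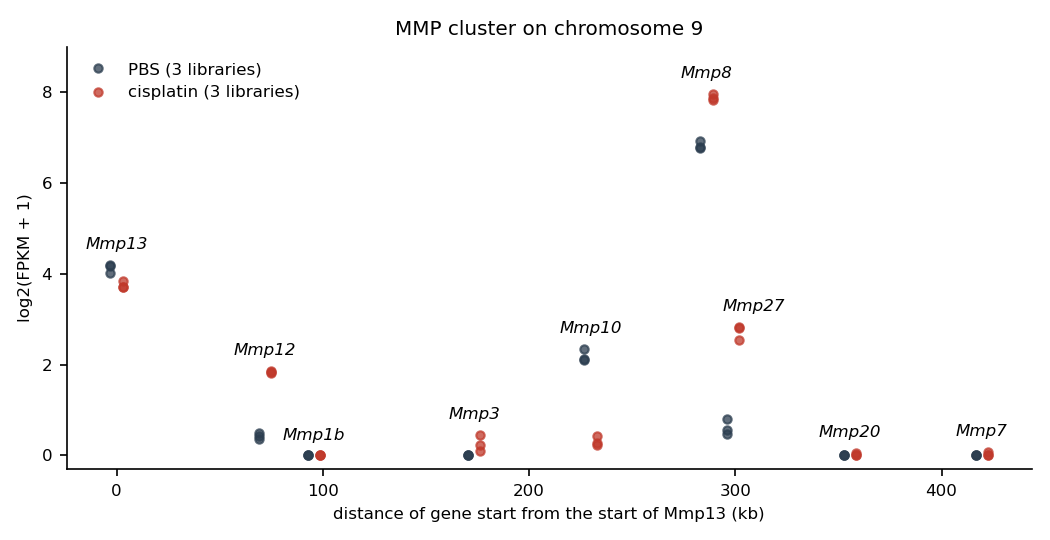
Levels of the 9 MMP genes of the chromosome 9 cluster, as log2(FPKM + 1) in each library (y), against the distance of the gene start from that of Mmp13 in kb (x). Mmp12, Mmp8 and Mmp27 are higher with cisplatin, Mmp10 and Mmp13 are lower, and the other 4 are near 0.

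In the RefSeq windows from 250 bases before to 50 after the start, 52 members had a sequence. TGANTCA was present for 7 of the 9 cluster members, for 5 of the 43 members elsewhere and for 8.97% of 27025 genes. In the cluster the genes without a match were Mmp8 and Mmp27, whose stretches are printed above, and both rose. Among members with a sequence, a match was present for 1 of 6 that rose (Mmp12), 1 of 8 that fell (Mmp10) and 2 of 8 that were tested and not called. Mmp13, Mmp12 and Mmp10 therefore share the motif and lie in different classes of the comparison. TATAAA, the core of the TATA box, was present on the gene's strand for 7 of the 9 cluster members (for Mmp12 after the start) and for 9.77% of the 27025 genes.

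The 3 tested TIMPs were at lower values with cisplatin, and Timp4, with 6 reads in each group, was below the minimum. Timp2 (ENSMUSG00000017466, chromosome 11, 118301069 to 118355740), which inhibits MMPs and with MMP14 takes part in the activation of pro-MMP2, was at 69.9, 71.0 and 70.1 FPKM with cisplatin and at 184, 179 and 181 FPKM with PBS. The groups lay over 100 FPKM apart (log2 fold change -1.35, SE 0.0289, adjusted p = 1.05e-07). Timp3 (ENSMUSG00000020044, chromosome 10, 86300372 to 86349506), the matrix-bound TIMP that also inhibits ADAM17, was at 4.12, 3.63 and 3.55 FPKM with cisplatin and at 13.3, 14.8 and 14.4 FPKM with PBS. It fell 3.76-fold by the means (log2 fold change -1.67, SE 0.0672, adjusted p = 1.36e-06). Timp1 (ENSMUSG00000001131, chromosome X, 20870166 to 20874735), a secreted inhibitor of most soluble MMPs, was at 35.2, 37.0 and 36.8 FPKM with cisplatin and at 43.7, 46.7 and 47.9 FPKM with PBS. The log2 fold change was -0.33 (SE 0.0452, adjusted p = 0.000532), short of the fold threshold. Set against each other per library, the FPKM of Mmp14 was 0.0632 to 0.0664 of that of Timp2 with PBS and 0.524 to 0.526 with cisplatin. The FPKM of Mmp9 was 2.12 to 2.40 times that of Timp1 with PBS and 4.47 to 4.85 times with cisplatin. These ratios describe RNA and not enzyme activity.

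Of the 7 tested ADAMs 1 rose and 6 were not called. Adam8 (ENSMUSG00000025473, chromosome 7, 139978932 to 139992562), a sheddase of leukocytes, was at 79.1, 82.7 and 81.3 FPKM with cisplatin and at 37.8, 34.6 and 35.2 FPKM with PBS. It rose (log2 fold change 1.15, SE 0.0429, adjusted p = 9.17e-07), and it was not past the threshold under limma treat (adjusted p = 0.051). Adam10, which sheds Notch, cadherins and growth factors, was at 54.4, 52.0 and 54.3 FPKM with cisplatin and at 94.7, 102 and 97.9 FPKM with PBS. Adam9, another widely expressed sheddase, was at 34.4 ± 1.22 against 62.6 ± 2.17 FPKM. The log2 fold changes of Adam10 (-0.86, SE 0.0388, adjusted p = 2.28e-06) and Adam9 (-0.85, SE 0.0426, adjusted p = 3.81e-06) were alike in size and short of the fold threshold. Adam17, which releases tumour necrosis factor, was at 47.7, 46.7 and 46.3 FPKM with cisplatin and at 48.7, 50.8 and 48.9 FPKM with PBS. Its log2 fold change was -0.08 (95% interval -0.16 to 0.01, adjusted p = 0.0862), which bounds a difference to under 0.2 on that scale, and its sign turned with scaling by total reads (0.010).

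Adam19 was at 4.54 ± 0.403 against 1.93 ± 0.281 FPKM (log2 fold change 0.92, SE 0.0965, adjusted p = 0.000145), and was past the fold threshold with a pseudocount of 0.1, under quantile normalisation and with voom. Adam15 was at 14.4 ± 0.307 against 16.6 ± 0.314 FPKM (log2 fold change -0.20, adjusted p = 0.00339). Adam11, a member without a catalytic site known mainly from neurons, was at 1.16 ± 0.113 against 0.423 ± 0.0973 FPKM (log2 fold change 0.61, SE 0.109, adjusted p = 0.0022), and it was past the fold threshold with a pseudocount of 0.1 (1.29) and with voom (1.54).

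Of the 6 tested ADAMTS genes 3 fell. Adamts7 (ENSMUSG00000032363, chromosome 9, 90163069 to 90208071), which cleaves cartilage oligomeric matrix protein, was at 2.08, 2.45 and 1.92 FPKM with cisplatin and at 21.1, 22.5 and 23.1 FPKM with PBS. It fell 10.3-fold by the means (log2 fold change -2.88, SE 0.0746, adjusted p = 2.08e-07). This was the largest fall of the tested members on log2(FPKM + 1), whereas Adamts9 and Mmp10 fell by more in the ratio of means, with a pseudocount of 0.1 and with voom. Adamts9 (ENSMUSG00000030022, chromosome 6, 92772699 to 92943492), a hyalectanase that cuts versican and aggrecan, was at 0.313, 0.275 and 0.326 FPKM with cisplatin and at 4.42, 4.89 and 4.77 FPKM with PBS. The means differed 15.4-fold (log2 fold change -2.12, SE 0.0772, adjusted p = 8.41e-07). Adamts1, a hyalectanase with the same substrates, was at 1.05, 1.39 and 0.925 FPKM with cisplatin and at 3.19, 3.54 and 2.66 FPKM with PBS. The log2 fold change, -0.96 (SE 0.12, adjusted p = 0.000357), was just short of the threshold and passed it with a pseudocount of 0.1, with voom, without PBS replicate 3 and without cisplatin replicate 2.

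Adamts14 (ENSMUSG00000059901, chromosome 10, 61197112 to 61273438), which removes the amino-terminal propeptide of procollagens, was at 0.283, 0.328 and 0.373 FPKM with cisplatin and at 2.22, 1.63 and 1.53 FPKM with PBS. It fell (log2 fold change -1.06, SE 0.123, adjusted p = 0.00024) and was short of the threshold without PBS replicate 1 (-0.96) and under quantile normalisation (-0.90). Adamtsl4 (ENSMUSG00000015850, chromosome 3, 95676201 to 95687917), a fibrillin-binding protein without a protease domain, was at 1.69, 1.99 and 1.88 FPKM with cisplatin and at 11.6, 9.89 and 10.8 FPKM with PBS. It fell 5.81-fold by the means (log2 fold change -2.04, SE 0.0745, adjusted p = 8.53e-07). Adamtsl5 was at 2.60 ± 0.183 against 4.41 ± 0.22 FPKM (log2 fold change -0.58, adjusted p = 0.000251). Adamts10, a protease of the fibrillin microfibrils, was at 5.69 ± 0.273 against 4.70 ± 0.264 FPKM (log2 fold change 0.23, adjusted p = 0.0126). Adamts6, the nearest relative of Adamts10, was the member whose groups overlapped, at 1.29 to 1.76 against 1.32 to 1.85 FPKM (log2 fold change -0.04, 95% interval -0.32 to 0.24, adjusted p = 0.772), and its sign turned with several scalings.

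The marker lists given above moved with these results. The ID8 and mesothelial list was lower with cisplatin beside the members that fell, and the macrophage, neutrophil and lymphocyte lists were higher beside those that rose. The part of these lists in the members' differences was not tested. Of the 30 tested members, 14 overlap another gene in the table (Timp1 with Syn1, Timp3 with Syn3, Mmp11 with Chchd10 and Adamts7 with Tbc1d2b among them), and the sources used here do not say if reads were counted by strand. Reads of such pairs may therefore be shared.

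The remaining 53 members did not reach the minimum. Of these, 7 had no read in any library (Mmp1b, Adam6a, Adam20, Adam24, Adam26a, Adam26b and Adam39), 17 had 1 to 10 reads in all 6 libraries together and 29 had more. The 5 with the highest mean FPKM were Adamts4, Adam25, Mmp24, Mmp15 and Adamts3. Adamts4 (aggrecanase-1) had 15, 22 and 19 reads with cisplatin and 67, 53 and 58 with PBS. Adam25, one of a group of ADAMs known from testis, had 0 reads in each cisplatin library and 50, 30 and 41 with PBS, at least 41.3-fold lower against a floor of 3 reads over the group. Its neighbours on chromosome 8, Adam24 and Adam20, were at 0 throughout.

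Of the low membrane-bound MMPs, Mmp24 (MT5-MMP) had 3, 6 and 8 reads with cisplatin and 49, 65 and 69 with PBS, and Mmp15 (MT2-MMP) had 8, 11 and 23 against 59, 49 and 59. The groups did not overlap in either gene, and both lay in the opposite direction to Mmp14 and Mmp25. Adamts3, a procollagen N-proteinase, had 28, 27 and 18 reads against 39, 34 and 16, with overlapping groups. Adamts2 and Adam23, named after their values were seen, also had groups that did not overlap. Adamts2, the third procollagen N-proteinase beside Adamts3 and Adamts14, had 2, 1 and 1 reads with cisplatin and 86, 81 and 54 with PBS, and Adam23, a non-catalytic ADAM, had 43, 49 and 34 against 7, 1 and 4. In a fit with limma voom on the recovered reads and no minimum, added after the data were examined, 8 of the 46 members with reads that were otherwise untested were higher and 6 lower, where 6.71% and 5.18% of the 19473 such genes were.

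**Figure D4:**
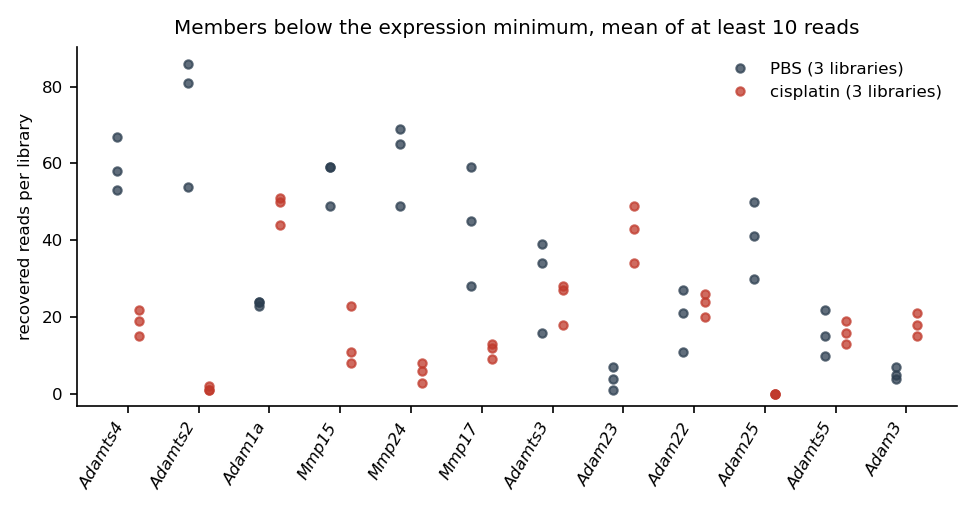
Recovered reads per library (y) of the 12 members below the minimum that had a mean of at least 10 reads per library (x). Adamts2, Mmp24 and Adam25 have 0 to 8 reads in the cisplatin libraries and 30 to 86 with PBS, while Adam23 is higher with cisplatin.

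Genes that act with these proteases were counted from lists of the pathway, to be read against the 4.67% of all tested genes that rose and the 11.3% that fell. Of 28 activators, trafficking partners and inhibitors 13 were tested, 6 fell (46.2%) and 7 were not called, the median log2 fold change being -0.96. Bsg (basigin or EMMPRIN), a surface protein known to induce MMPs, was at 122 ± 2.02 FPKM with cisplatin and 803 ± 36.7 with PBS (log2 fold change -2.71, SE 0.041, adjusted p = 5.32e-08). Rhbdf1 (iRhom1), which carries ADAM17 to the surface, was at 1.47 ± 0.137 against 6.73 ± 0.471 FPKM (-1.64 on the log2 scale, adjusted p = 2.59e-06). The more abundant Rhbdf2 (iRhom2), with the same role and named after its values were seen, was at 32.3 ± 0.668 against 30.9 ± 0.571 FPKM (0.06, adjusted p = 0.173). Tspan15, a partner of ADAM10, was at 1.68 ± 0.0675 against 7.08 ± 0.319 FPKM (-1.59, adjusted p = 1.02e-06). Lcn2, a secreted protein that forms a complex with MMP9 and is named after its values were seen, fell from 1021 ± 20.4 to 479 ± 9.85 FPKM (log2 fold change -1.09, adjusted p = 4.06e-07), in the opposite direction to Mmp9.

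Of 30 surface proteins known to be shed by ADAMs 29 were tested, 4 rose (13.8%) and 5 fell (17.2%), and their median log2 fold change was 0.10. Of the rises 3 (Mertk, Trem2 and Fcer2a), and Cx3cl1 among the falls, reached the minimum in a single group and so had to differ to be tested. These 4 were named with their values in view. On log2(FPKM + 1) the largest changes were those of Vcam1, an adhesion molecule (2.42 ± 0.207 against 18.4 ± 1.12 FPKM, log2 fold change -2.50, adjusted p = 2.57e-07), Axl, a receptor kinase that takes part in the uptake of dead cells (14.9 ± 0.205 against 83.9 ± 1.97 FPKM, -2.41, adjusted p = 4.58e-08), and Btc, a ligand of the EGF receptor (3.42 ± 0.227 against 20.5 ± 1.62 FPKM, -2.28, adjusted p = 4.46e-07). By the ratio of means, Fcer2a (9.62-fold higher) and Cx3cl1 (8.71-fold lower) differed by more than Vcam1 (7.59-fold lower). Of 25 matrix substrates 13 were tested, 1 rose (7.69%, from a single gene) and 9 fell (69.2%), with a median of -1.62. The gene that rose was Vcan, the large proteoglycan cut by ADAMTS1 and ADAMTS9, at 16.2, 14.9 and 14.8 FPKM with cisplatin and at 0.668, 0.897 and 0.771 FPKM with PBS (log2 fold change 3.19, SE 0.0712, adjusted p = 1.20e-07). Hspg2 (perlecan) was at 11.4 ± 1.40 against 109 ± 5.53 FPKM (-3.16, adjusted p = 2.60e-07) and Lamc1, a laminin chain, at 14.0 ± 0.229 against 62.8 ± 2.91 FPKM (-2.09, adjusted p = 1.04e-07). Vcan reached the minimum only with cisplatin and Adamts9 only with PBS, so both had to differ to be tested.

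**Figure D5:**
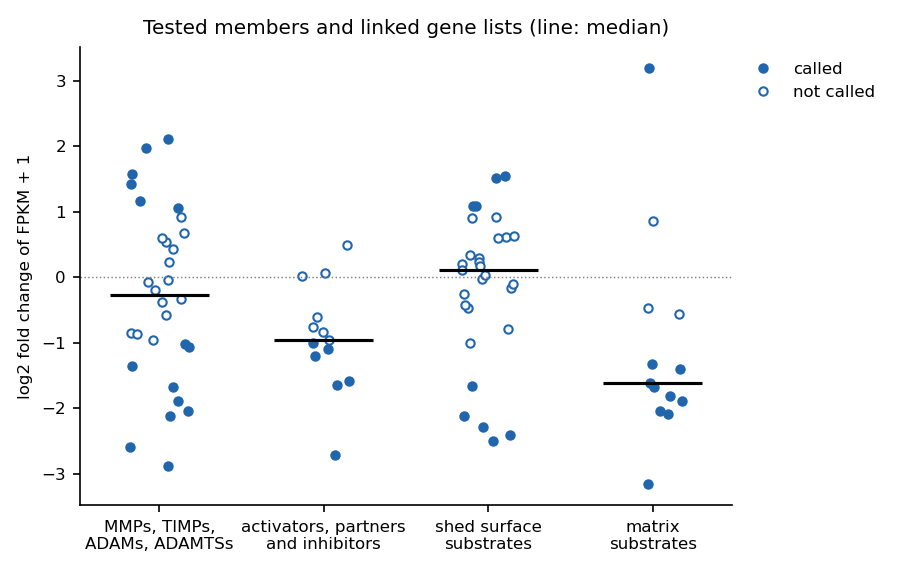
Log2 fold change of FPKM + 1 (y), cisplatin against PBS, of the tested members and of the tested genes of the 3 linked lists (x), with filled points for genes that rose or fell and a line for the median. The medians are -0.27, -0.96, 0.10 and -1.62, and the single filled point above 3 is Vcan.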

How the data were processed

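RNA was sequenced from poly-T selected libraries, 3 per group. Per the labels, the processing notes name fastp, HISAT2 2.0.5, featureCounts 1.5.0-p3 and mm10, whereas the study's methods name LifeScope for alignment and counting and DESeq2 for testing. Which made the table is not settled here. The deposited table gives FPKM made by the authors for 54532 genes, with coordinates that equalled those of GENCODE M21 (GRCm38) for 82 of the 83 members.

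FPKM multiplied by gene length, checked for values worth fewer than 200 reads, were whole multiples of a fixed step (tolerance 0.02), and the same step gave the reads behind the other values. These summed to 15776238 to 17924686 per library, so counting error was small except for members with few reads. Floors cover counting error only.

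Genes reaching 1 FPKM in 3 or more of the 6 libraries were tested on log2(FPKM + 1), a scale that understates the change of low genes, with limma 3.58.1 in R 4.3.3 (eBayes with a trend, group as the only term, all libraries, two-sided), with Benjamini-Hochberg adjustment over 13441 genes. A gene was called where the adjusted p was under 0.05 and the log2 fold change was 1 or more in size. The study's fold of 2 was set on counts, and on log2(FPKM + 1) the cut is stricter for low genes, so a member with a ratio of means above 2 may not be called. Fold changes by the means are ratios of mean FPKM. Intervals are 95%. The procedure was tested on simulated data whose changes lay well past the fold threshold, so calls near that threshold were not covered.

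The members and lists were chosen with earlier results of these data known. All tested members, the 5 untested ones with the highest mean FPKM, and the 3 called genes of each linked list with the largest change are named. Names outside these were chosen with their values in view: the members of the chromosome 9 cluster, Timp4, those without reads, the marker genes that do not lead their list, and those said to be so in the text. Promoters came from RefSeq (GRCm38.p6), matched by symbol. Alternatives were a pseudocount of 0.1, no minimum or one of 5 FPKM, scaling by median of ratios, quantile normalisation, scaling by total reads, voom, eBayes without a trend, a replicate block, the adjusted p alone, limma treat and leaving out each library. Voom without a filter was added after the data were examined.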

Additional observations from a re-analysis of the deposited data

How the results depend on the processing

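Of 528 values of single members under 18 alternatives, 485 kept their direction and their call, 25 were newly called and 9 were no longer called. The new calls include those with the adjusted p alone (Adam15 and Adamts10 among them), which sets no fold threshold. The 9 that changed sign belonged to 2 members that were not called. Adamts6 was at 0.11 under quantile normalisation, 0.012 with scaling by total reads, 0.032 with voom, 0.031 with voom and no filter, and -0.117 to 0.032 when each library was left out (above 0 without PBS replicate 2 and without cisplatin replicate 3, at 0.024). Adam17 was at 0.010 with scaling by total reads, 0.011 with voom and 0.011 with voom and no filter. The calls of Mmp8, Adam8, Mmp28 and Adamts14 were lost under limma treat (tested against a change of 1 on the log2 scale). The cause was not tested here or for the counts below, except where stated.

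With a pseudocount of 0.1, 973 of all genes and 2 matrix substrates rose. With the filter at 5 FPKM, 4 members rose and 5 fell, since Mmp12, Mmp27, Adamts14, Adamts9, Mmp10 and Mmp28 were then not tested, and 1 shed substrate rose. With voom 1227 of all genes, 8 shed substrates and 2 matrix substrates rose. With the adjusted p alone, 12 members were higher and 16 lower, as were 4424 and 4721 of all genes, 1 and 10 activators and partners, and 14 and 11 shed substrates, and 2 matrix substrates were higher. With limma treat, 240 of all genes rose and 982 fell, 3 activators and partners fell and 2 shed substrates rose. With voom and no filter, 16 members rose and 16 fell, as did 2491 and 2860 of all genes, and 3 activators and partners, 8 shed substrates and 5 matrix substrates rose.

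Leaving out each library in turn gave 6 members that rose and 8 to 10 that fell, with 622 to 671 and 1513 to 1531 of all genes, 5 to 6 activators and partners that fell, 3 to 4 shed substrates that rose and 5 to 6 that fell, and 1 and 9 matrix substrates. The share of calls that were rises was 29.3%, and 39.3% under quantile normalisation (7 members rose and 7 fell), 39.7% with voom (8 and 10) and 35.7% with scaling by total reads. Quantile normalisation moved the median of all genes to 0.10, and voom without a filter to 0.19. With the replicate number as a block, 6 members rose and 9 fell, the same genes as without it. Same-numbered libraries did not deviate together (correlations -0.104, -0.0857 and -0.0236), so they share only a number. Depth limits the members below the minimum, of which 24 had 10 reads or fewer in all.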
